A study of Mus musculus with 4 samples.

Results

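Inflammatory chemokines are small secreted proteins that draw leukocytes to a site of inflammation, and 9 of their genes were followed in the spleens of newborn mice whose mothers had been given carbon black nanoparticles (CB-NP). The genes were Ccl2, Ccl3, Ccl4, Ccl5, Ccl7, Cxcl1, Cxcl2, Cxcl9 and Cxcl10, taken as a named set of inducible chemokines. They were found on the array by the RefSeq accession of each probe, and 10 probes matched these 9 genes, out of 55681 probes and 20284 matched genes in all. Cxcl9 had 2 probes and the other genes had 1 each. Where a gene had several probes, the one with the highest mean signal stood for it.

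Chemokines are grouped by the spacing of their first cysteines into CC (Ccl) and CXC (Cxcl) families, and they act on G protein-coupled receptors of leukocytes. Ccl2 and Ccl7 attract monocytes through Ccr2, Ccl3, Ccl4 and Ccl5 attract monocytes and T cells, Cxcl1 and Cxcl2 attract neutrophils through Cxcr2, and Cxcl9 and Cxcl10 attract activated T cells and natural killer cells through Cxcr3. Most are made at low levels until tumour necrosis factor, interleukin-1, microbial products or interferons induce them through NF-kB and STAT or IRF factors, and their mRNAs are short-lived.

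All animals were ICR mice, an outbred stock, killed for spleen RNA at 5 days of age. Exposed pups came from dams given 95 microg/kg of CB-NP into the nose 2 times, on gestational days 5 and 9, and control pups from dams given 1 mL/kg of distilled water. RNA was combined into 1 pool for each sex and treatment, and each pool was read on 1 single-colour array. Where 4 values stand in a row, they run from control males over exposed males and control females to exposed females. How many animals or litters made up a pool is not given in the sources used here. With 1 pool per group, no difference within a sex could be set against a spread between replicates. The scanner error printed beside a difference is that of reading spots and includes no variation among animals.

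The 4 arrays lay on 1 slide, and between 57.3% and 59.0% of their 59305 non-control spots were well above background, which is the scanner software's own call. Levels are log2 signals relative to the 75th percentile of each array's signals, so a level of 0 is that percentile. The spleen-determining transcription factor genes Tlx1 and Nkx2-5 were well above background in all 4 pools. Most listed genes of pancreatic acinar cells, a neighbouring tissue, were far lower in the CB-NP pools. Exceptions were Cela1, which differed by 0.21 in males and -0.59 in females, and Pnlip, which was not well above background in any pool. The summed level of 14 such genes, as multiples of the 75th percentile, was 23.5 and 20.0 in the male and female control and 1.91 and 1.95 in the male and female CB-NP pool. Eosinophil genes summed to 32.1 and 62.7 in the controls and to 9.16 and 17.5 with CB-NP, and B cell genes to 58.8 and 55.4 in the controls and to 98.7 and 91.2 with CB-NP. In whole-spleen RNA, fewer cells of a type and less RNA per cell cannot be told apart.

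Of the 9 chemokine genes, 6 were well above background in every pool (Ccl2, Ccl3, Ccl4, Ccl5, Cxcl9 and Cxcl10), and 3 were not well above background in any (Ccl7, Cxcl1 and Cxcl2). All 6 measured genes, Cxcl9 by the brighter of its probes, were higher in the male CB-NP pool than in the male control, by 0.35 to 0.96 on the log2 scale, and none reached 2-fold. In the female pair Cxcl10, Cxcl9, Ccl5 and Ccl4 were higher by 0.56 to 0.09, whereas Ccl2 and Ccl3 were lower by 0.11 and 0.47 (differences of -0.11 and -0.47). Ccl4 in females changed sign (-0.02) with median centring, and the other 5 kept their sign under the 6 processing settings tried. The male control was the lowest of the 4 pools for 5 of the 6 genes, which was so for 20.9% of all genes. By its other probe Cxcl9 was lowest in the male CB-NP pool.

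**Figure D1:**
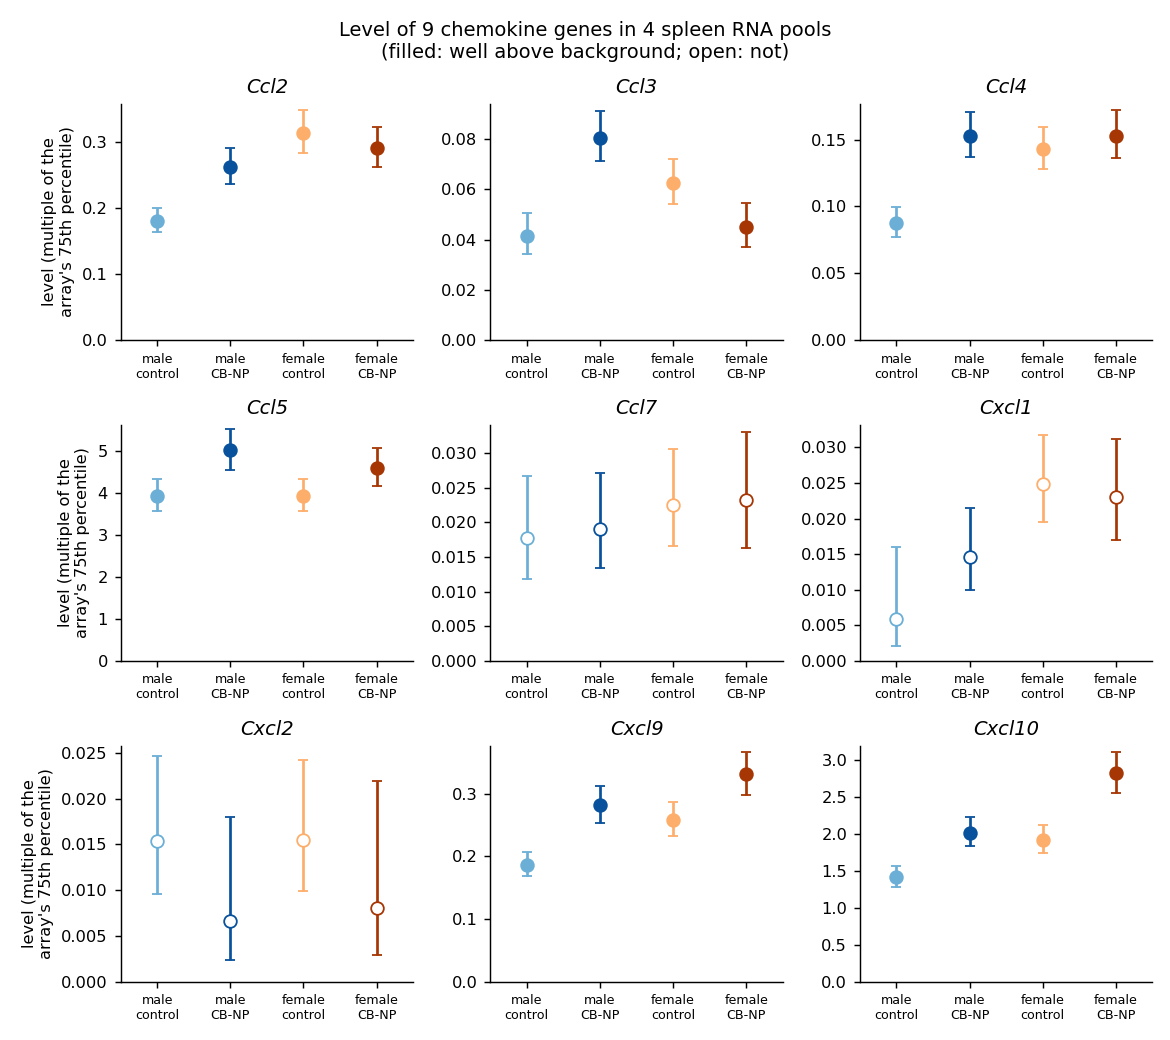
Level of the 9 chemokine genes in each of the 4 pools, as multiples of the array's 75th percentile on a linear axis that starts at 0 (1 array per pool). Bars are the scanner error, filled points were well above background and open points were not; Cxcl10 and Cxcl9 lie lowest in the male control and highest in the female CB-NP pool.

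The Cxcr3 ligands Cxcl9 and Cxcl10, classical interferon-gamma-induced genes that lie close together on chromosome 5, were higher in the CB-NP pool of each sex by their main probes. Their promoters are shown here because both genes are classed as interferon-induced and lie close together. The 250 bases before the RefSeq start of each gene (build GRCm38.p6; Cxcl9 at chr5:92328080-92328329, minus strand; Cxcl10 at chr5:92348890-92349139, minus strand) read as follows, with capitals marking matches to the motifs searched.
Cxcl9: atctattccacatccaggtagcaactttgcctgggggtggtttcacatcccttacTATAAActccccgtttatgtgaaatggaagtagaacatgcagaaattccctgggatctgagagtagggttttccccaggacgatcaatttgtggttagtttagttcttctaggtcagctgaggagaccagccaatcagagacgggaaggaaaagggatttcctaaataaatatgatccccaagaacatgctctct
Cxcl10: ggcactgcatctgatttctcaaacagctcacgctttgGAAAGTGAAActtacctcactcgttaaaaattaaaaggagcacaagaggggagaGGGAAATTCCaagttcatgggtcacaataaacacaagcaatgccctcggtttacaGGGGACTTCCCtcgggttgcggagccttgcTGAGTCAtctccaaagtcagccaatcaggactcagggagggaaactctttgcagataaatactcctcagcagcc
The motifs searched on both strands were the NF-kB consensus, the interferon response element (GAAA, any 2 bases, GAAA), the gamma-activated site TTCNNNGAA, the AP-1 site TGANTCA and the TATA box TATAAA. The Cxcl10 window held an interferon response element (bases 213 to 204 before the start), NF-kB matches at bases 159 to 150 and, overlapping each other, at 104 to 94, and an AP-1 site at bases 74 to 68. The Cxcl9 window held 1 match, the letters TATAAA at bases 195 to 190, and sites of other spelling were not searched. Of 32851 promoter windows of this length, 2.98% held the interferon response element, 7.25% the NF-kB consensus, 7.02% the gamma-activated site, 6.75% the AP-1 site and 12.4% the TATA box. A match is a run of letters and not a shown binding site.

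The Cxcl10 probe gave 475, 688, 751 and 893 intensity units in the 4 pools. As centred levels these were 0.50, 1.02, 0.94 and 1.49. Both CB-NP pools thus lay above both controls, with a gap of 0.08 between the male CB-NP and the female control pool. Cxcl10 was higher by 0.51 (scanner error 0.20) in males, 1.43-fold, and by 0.56 (0.20) in females, 1.47-fold. Among the 13933 genes well above background on all arrays, 96.4% had a lower male difference and 95.2% a lower female difference. The middle 95% of the 1393 genes nearest to it in signal (1 of 10 equal classes) ran from -0.39 to 0.54 in males and from -0.59 to 0.61 in females. The Cxcl10 differences with CB-NP fell inside these ranges, and its difference between the controls (0.43) lay above its range there (-0.41 to 0.37). Of the other chemokines, male Ccl3 (0.96, range -0.90 to 0.86) and male Ccl4 (0.81, -0.66 to 0.72) lay above the ranges of genes like them in signal, as did Ccl2 (0.80, -0.57 to 0.60) and Ccl4 (0.71, -0.77 to 0.64) between the controls. These ranges describe the genes of 1 pair of arrays and are no test.

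The main probe of Cxcl9 gave 62.5, 96.0, 101 and 105 units in the 4 pools, or levels of -2.42, -1.82, -1.96 and -1.59. Cxcl9 was higher with CB-NP by 0.60 (scanner error 0.21) in males and 0.36 (0.21) in females. On the centred scale its CB-NP pools lay above both controls by this probe. Another probe of the same accession read 58.2, 51.7, 69.7 and 71.9 units, which gave a male difference of -0.19 (0.22) and a female difference of 0.35 (0.21). The probes disagreed in the male pair and gave close values in the female pair, so the male difference of Cxcl9 rests on 1 of its probes.

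Ccl3, Ccl4 and Ccl5 encode MIP-1 alpha, MIP-1 beta and RANTES and lie on chromosome 11, where Ccl3 and Ccl4 are adjacent. Ccl3 had the largest male difference of the 6 genes as centred here, but the smallest with normexp background correction, and the opposite sign in females. Its promoter window (250 bases before the start, GRCm38.p6, chr11:83649379-83649628, minus strand) is given for comparison with those of Cxcl9 and Cxcl10.
Ccl3: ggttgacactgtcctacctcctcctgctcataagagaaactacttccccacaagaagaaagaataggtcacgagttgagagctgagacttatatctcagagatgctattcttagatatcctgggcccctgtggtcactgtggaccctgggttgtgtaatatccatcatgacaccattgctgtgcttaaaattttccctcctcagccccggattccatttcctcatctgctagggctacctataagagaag
This window held no match to the 5 motifs, which says only that these letters are not in it. The Ccl3 probe gave 13.9, 27.4, 24.5 and 14.3 units in the 4 pools. These are weak signals, since the lowest 1% of spots called well above background lay at or under 10.6 to 12.4 units on the 4 arrays. Median spot pixels were 39.5, 50.5, 45.0 and 37.0 over local backgrounds of 26.0, 24.0, 22.0 and 21.0. The male CB-NP and female control pools were thus high, and the male control and female CB-NP pools low. The centred Ccl3 levels were -4.59, -3.63, -4.00 and -4.47. On that scale Ccl3 was 1.94-fold higher with CB-NP in males (log2 difference 0.96, scanner error 0.33) and 1.39-fold lower in females (-0.47, 0.35). With normexp background correction, which damps weak signals, the values were 0.21 and -0.14.

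Ccl4 gave 29.3, 52.1, 56.1 and 48.4 units in the 4 pools, and levels of -3.52, -2.71, -2.80 and -2.71. The male control alone was low, and the other pools lay within 0.09 of each other. Ccl4 was 1.75-fold higher with CB-NP in males (0.81, scanner error 0.25) and differed by 0.09 (0.23) in females. With normexp the male difference was 0.28. Ccl5, which T cells and natural killer cells make, gave 1320, 1710, 1540 and 1460 units, or levels of 1.98, 2.33, 1.97 and 2.20. On the centred scale the control pools were level with each other and both CB-NP pools were above them. In units the female CB-NP pool read below the female control, for Ccl5 as for Ccl4. Ccl5 was higher by 0.35 (0.20) in males and 0.23 (0.20) in females, and over the 6 settings by 0.35 to 0.41 and by 0.12 to 0.32.

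Ccl2 and Ccl7, the monocyte chemoattractants MCP-1 and MCP-3, are neighbours on chromosome 11. The Ccl2 probe was printed 10 times on each array, which shows how finely an array reads 1 pool. The spots ran from 52.0 to 69.2 units (median 60.7) in control males, 78.5 to 101 (89.4) in exposed males, 110 to 138 (124) in control females and 84.5 to 105 (91.4) in exposed females. On the centred scale the spots of the male control (-2.69 to -2.28) did not overlap those of the male CB-NP pool (-2.11 to -1.75), whereas those of the female control (-1.83 to -1.51) and the female CB-NP pool (-1.91 to -1.59) overlapped. Repeated spots are 1 RNA read again, and they say nothing of how far 2 pools of like animals would differ. Ccl2 was higher by 0.54 (scanner error 0.21, not reduced for repeated spots) with CB-NP in males and differed by -0.11 (0.21) in females. The largest Ccl2 difference lay between the unexposed pools, where the female control was 1.74-fold above the male control (0.80, 0.21). The male CB-NP difference was 0.30 with normexp.

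**Figure D2:**
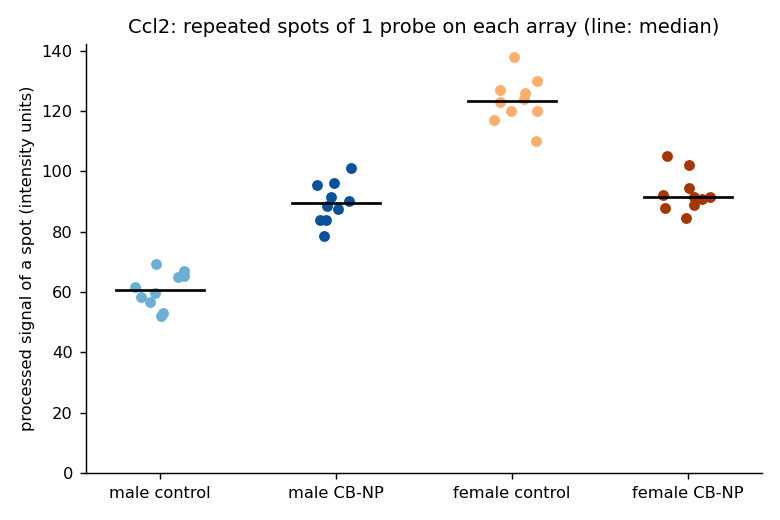
Processed signal of the 10 Ccl2 spots on each of the 4 arrays, in intensity units on an axis from 0, with the median as a line (sideways scatter has no meaning). The male control spots lie between 52.0 and 69.2 units, below all spots of the other 3 arrays.

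Ccl7 read 5.93, 6.47, 8.81 and 7.35 units in the 4 pools and was not well above background in any. The neutrophil attractants Cxcl1 (KC) and Cxcl2 (MIP-2), adjacent on chromosome 5, were likewise not well above background, with 1.96 to 9.77 units for Cxcl1 and 2.24 to 6.09 for Cxcl2. At these signals no fold was computed and no order of the pools can be read. Within the 250 bases before the start of Cxcl1 and of Cxcl2 a script found the same NF-kB run, GGGAATTTCC, at bases 71 to 62 and 97 to 88. Promoter windows were matched for 5 of the 9 genes, and Ccl2, Ccl4, Ccl5 and Ccl7 had no entry.

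Set beside all genes, the male differences of the 6 measured chemokines, by their main probes, had a median of 0.57. Over 14186 genes the median was -0.02 (quartiles -0.14 and 0.13). Above 0 were 6 of 6, against 45.2% of all genes. At least 2-fold were 0 of 6, against 0.86% of all genes (0.352% higher and 0.508% lower). In females the median was 0.16, against -0.04 over 14075 genes (quartiles -0.21 and 0.15). Above 0 were 4 of 6, against 43.3%, and at least 2-fold were 0 of 6, against 1.09% (0.661% higher and 0.433% lower). With median centring the all-gene median moved by -0.111 in the female pair and by 0.118 between the controls.

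Between the unexposed pools the female control had the higher level for 5 of the 6 genes. It was above the male control by 0.80 for Ccl2, 0.71 for Ccl4, 0.59 for Ccl3, 0.47 for Cxcl9 (0.03 by its other probe, scanner error 0.21) and 0.43 for Cxcl10, while Ccl5 differed by less than 0.01 and changed sign with median centring (0.11) and normexp. The median was 0.53, against 0.01 over 14164 genes. Above 0 were 5 of 6 genes, against 52.4%, and at least 2-fold were 0 of 6, against 0.777% (0.254% higher and 0.522% lower). This comparison and the male one share the male control array, so a low reading of that pool enters both. Differences of more than 2 scanner errors, which leave out variation among animals, were seen for 5 of 6 genes in the male CB-NP comparison (8.06% of all genes), 4 of 6 between the controls (7.57%) and 1 of 6, Cxcl10, in the female CB-NP comparison (13.7%).

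**Figure D3:**
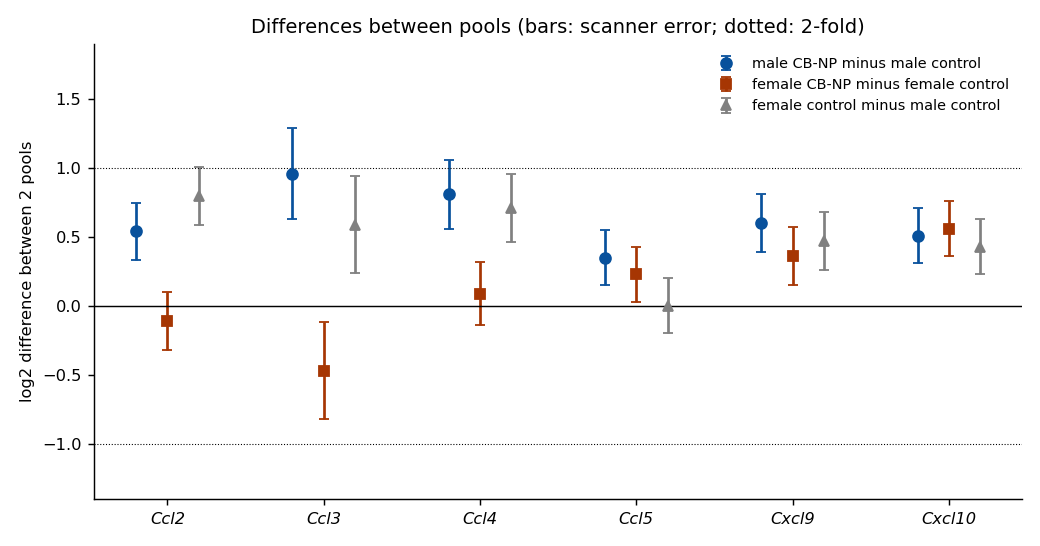
Log2 differences of the 6 measured chemokines between male CB-NP and male control, female CB-NP and female control, and female and male control (1 array per pool; bars are the scanner error, dotted lines mark 2-fold). The male CB-NP differences run from 0.35 to 0.96 and the female ones from -0.47 to 0.56.

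A count over pools that did not overlap was added after the values had been seen. Both CB-NP pools lay above both control pools for 4 of the 6 genes (Ccl4, Ccl5, Cxcl9 and Cxcl10), against 21.8% of 13933 genes, and lay below them for 0 of 6, against 32.7%. The gaps between the nearest pools were 0.09, 0.23, 0.13 and 0.08. The Ccl5 gap was above the scanner error of that gene's differences (0.20), and the other gaps were below theirs (0.20 to 0.25). With median centring the female Ccl5 difference, which the gap cannot exceed, was 0.12 and so below that error. With median centring Ccl4 left this group, and with the mean over all probes Cxcl9 left it, so that 3 of 6 remained in each case.

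The sexes were then used as replicates of the exposure in a limma model with sex as a term, which leaves 1 residual degree of freedom. Its SE and p draw on how alike the CB-NP differences of the sexes were, and on the variance over all genes. They measure no spread among animals or among pools of the same group. No chemokine passed a Benjamini-Hochberg adjusted p of 0.05 among 14502 genes tested, of which 0.0827% passed. Cxcl10 was higher by 0.53 (SE 0.09, unadjusted p 0.00623, adjusted p 0.306, limma), in 2 of 2 pairs. Cxcl9 by its main probe was higher by 0.48 (SE 0.11, adjusted p 0.324, limma) and Ccl5 by 0.29 (SE 0.09, adjusted p 0.358, limma), both in 2 of 2 pairs. By its other probe Cxcl9 was lower in the male pair (-0.19), and with the mean of all probes its limma estimate was 0.28 (SE 0.10). The limma estimates for Ccl4, Ccl3 and Ccl2 were 0.45 (SE 0.21), 0.24 (SE 0.40) and 0.22 (SE 0.20), with adjusted p-values of 0.410, 0.763 and 0.591. At an unadjusted p under 0.05 were 3 of 6 chemokines, against 13.8% of all genes. That count fell to 2 with median centring, to 2 with the mean of all probes and to 1 without the sex term. With an intensity trend in the variance prior, 2.63% of all genes were called and Cxcl10 was among them (adjusted p 0.0277, limma). No chemokine was called with median centring (2.39% of all genes called), normexp (0.31%), no sex term (0.0621%), the mean of all probes (0.0552%), quantile normalization (0.0207%) or the authors' value table (0.0138%). Over all 10 fits the adjusted p of Cxcl10 ran from 0.0277 to 0.705.

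**Figure D4:**
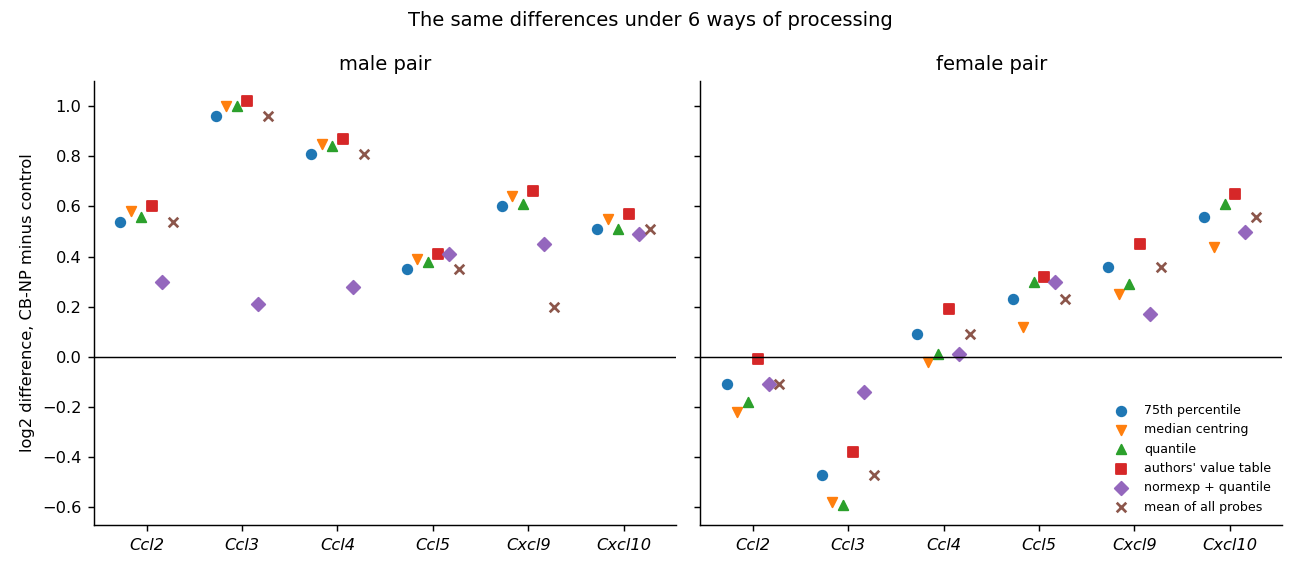
Log2 difference between CB-NP and control pools for the 6 measured chemokines in the male pair (left) and the female pair (right) under 6 ways of processing, 1 symbol for each. Cxcl10 stays between 0.49 and 0.57 in males and between 0.44 and 0.65 in females, whereas Ccl3 in males runs from 0.21 to 1.02.

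The pattern over the pools of each gene was compared with all other genes, by the root mean square distance between the 4 levels after each gene was centred on its own mean. Cxcl10 and Ccl3 had the widest ranges among the 6 (0.99 and 0.96). Nearest to Cxcl10 were Tpbg (distance 0.0308), Gbp4 (0.0421) and Cyp7b1 (0.0438), and 24 genes lay within 0.1 of it. Tpbg was higher with CB-NP by 0.56 in males and 0.49 in females, and Cyp7b1 by 0.59 and 0.55. Gbp4, a guanylate-binding protein gene, was higher by 0.52 in males and 0.52 in females. Nearest to Ccl3 were Apol11b (0.0641), Adora2b (0.0804), an adenosine receptor gene, and Gm5544 (0.0807), with 4 genes within 0.1. These likenesses rest on 4 arrays.

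The receptors of these chemokines were described from a list of 8. Measured in all pools were 6, with medians of 0.37 in males and 0.02 in females, and none was at least 2-fold different or passed limma. Ackr2, a decoy receptor that removes inflammatory CC chemokines, had levels of 0.88, 1.57, 0.71 and 1.5 in the 4 pools. It was higher with CB-NP by 0.69 in males and 0.79 in females. Ackr1, which binds many chemokines on red cells and venules, differed by -0.27 and -0.03. Of the receptors chosen for mention after their values were seen, Ccr2 differed by 0.33 and 0.06 and Cxcr3 by 0.04 and 0.11. Ccr1 and Cxcr1 were not well above background in any pool.

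Of 15 other inflammatory chemokines, 14 were on the array and 10 were measured in all pools. Their medians were 0.00 in males and 0.06 in females, with 5 and 6 of 10 above 0 and none at least 2-fold different as centred here. Under other settings Ccl24 passed 2-fold in males (1.03 with median centring and 1.05 with the authors' value table), and Ccl12 did in females (1.08 with the authors' value table). Ccl6 and Ccl9, made by myeloid cells, were higher by 0.07 and 0.29 in males and lower in females (differences of -0.26 and -0.29).

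Among 10 measured inducing cytokines and receptors of 14 listed, the medians were 0.11 in males and 0.05 in females, and none was 2-fold different or passed limma. The receptor genes Ifngr1 (0.11 and 0.02) and Ifnar2 (-0.17 and 0.03) were close to 0. Tnf, named after its values were seen, gave 94.8, 160, 136 and 145 units in the 4 pools. As centred levels these were -1.82, -1.09, -1.53 and -1.13, which is 0.74 and 0.40 higher with CB-NP. Ifng, encoding interferon-gamma, gave 29.9, 40.7, 65.3 and 44.5 units. Its centred levels were -3.49, -3.08, -2.59 and -2.83, with differences of 0.42 and -0.25. Both cytokine genes were lowest in the male control. Il1b, encoding interleukin-1 beta and likewise picked after its values were seen, differed by 0.09 and -0.48 and was lowest in the female CB-NP pool.

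Of 16 genes of NF-kB factors, activators and inhibitors, 15 were measured, and 12 of them were above 0 in males (median 0.22) against 10 in females (median 0.04). The subunit gene Rela differed by 0.08 and -0.06, and the inhibitor gene Nfkbia by 0.29 and 0.26. Tnfaip3, which encodes the feedback inhibitor A20 and was picked after its values were seen, gave 297, 485, 428 and 396 units. Its centred levels were -0.17, 0.51, 0.13 and 0.32, higher with CB-NP by 0.69 and 0.19. The female units were lower with CB-NP, and the female difference was 0.08 with median centring. Of the 12 interferon signalling genes all were measured, and 11 were above 0 in males (median 0.18) against 8 in females (median 0.19). Irf3 (0.06 and 0.00) and the kinase gene Jak1 (0.11 and -0.03) were near 0. Irf1, an interferon-induced transcription factor gene also picked after its values were seen, gave 1860, 3200, 3140 and 3400 units in the 4 pools, which is 0.76 and 0.42 higher. Neither list held a gene that was 2-fold different or passed limma. Among 5 genes of chemokine mRNA decay and stability, Elavl1 (-0.08 and -0.22) and Zfp36l2 (0.01 and -0.11) were the brightest, and the list medians were 0.21 and 0.15.

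Markers of the cells that make or answer to these chemokines were summed over lists in the same pools. The 4 fully measured monocyte genes of 6 listed had medians of 0.24 in males and -0.22 in females, and 0.30 between the controls. The 7 measured neutrophil genes of 8 listed had medians of 0.10, -0.34 and 0.12, and the 7 measured natural killer cell genes of 8 listed 0.04, -0.26 and 0.44 in the same comparisons. Their summed levels in the 4 pools were 59.4, 74.5, 77.4 and 68.3 for monocytes, 1320, 1390, 1390 and 1190 for neutrophils, and 12.9, 13.4, 14.7 and 12.1 for natural killer cells. Chil3 made up most of the monocyte sum. Chil3, F13a1 and Lyz2 were lowest in the male control, Ms4a3 was lowest in the female CB-NP pool, and Fcgr1 was well above background in the male control alone. Macrophage genes had medians of 0.04, 0.00 and -0.05 (9 measured of 10), with members on both sides of 0, from -0.66 for C1qb to 0.81 for Marco in females. T cell genes were higher with CB-NP in females (median 0.59, 9 of 9 above 0) and near 0 in males (0.10), and dendritic cell genes had medians of 0.08 and -0.16. The part of these cell types, and of the acinar, eosinophil and B cell genes given above, in the chemokine differences was not tested.

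**Figure D5:**
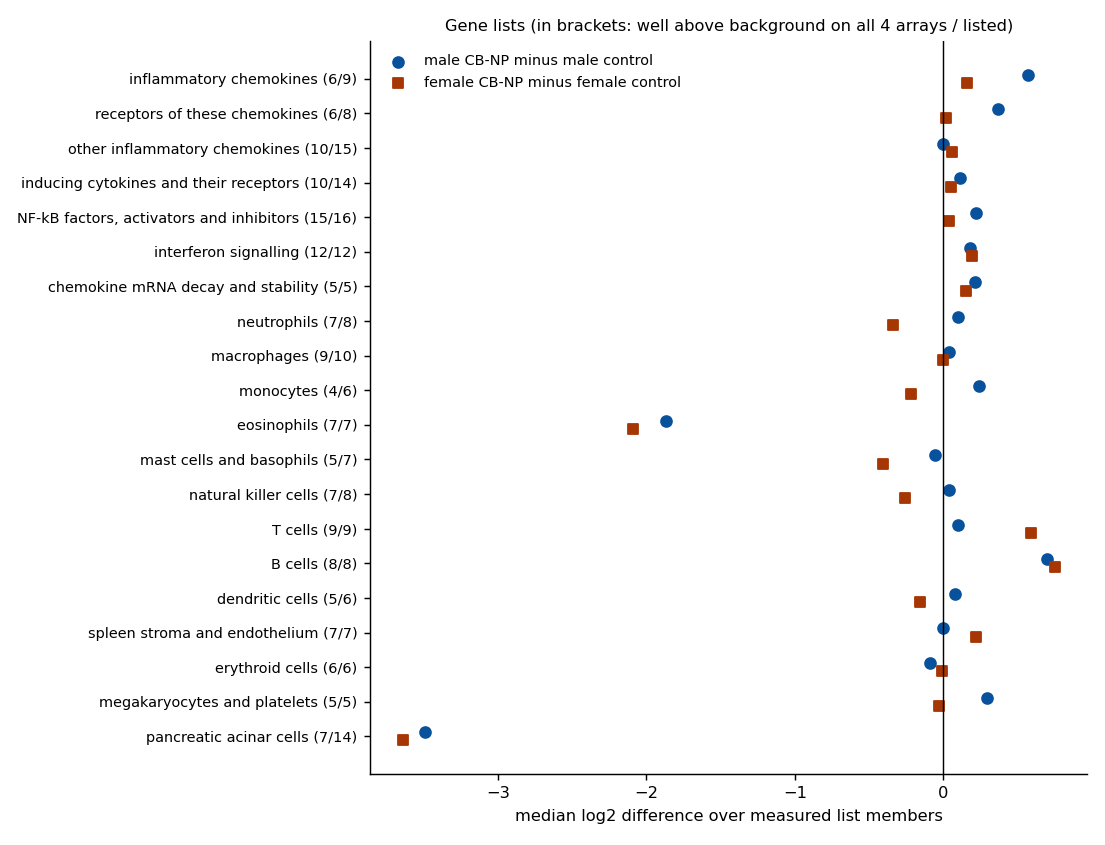
Median log2 difference between CB-NP and control pools over the measured genes of each list, for males (circles) and females (squares), 1 array per pool. The chemokine medians are 0.57 and 0.16; the pancreatic acinar (-3.49 and -3.64) and eosinophil lists (-1.87 and -2.09) lie farthest from 0.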

How the data were processed

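Spleen RNA pools were read on 4 single-colour (Cy3) Agilent arrays, design drawn on mm9, per the file headers. The authors' deposited processed signal is an intensity, background-subtracted within the array by Agilent Feature Extraction 10.10.1.1, per the file headers, and was not normalized between arrays. Other deposited columns are flags of 0 or 1 (well above background, saturated, outlier). No non-control spot was saturated. Each log2 signal was centred on its array's 75th percentile, and repeated spots were averaged without outlier spots. Probes were named through RefSeq accessions (26762 of 55681 matched, assembly GRCm38.p6), and promoter sequences come from RefSeq in the same build. A difference within a sex was computed where both arrays were well above background. limma 3.58.1 in R 4.3.3 used genes that 2 or more arrays detected, and was tested on simulated data. Python 3.11.15 did the rest. Alternatives were median centring, quantile normalization, the authors' value table, normexp (offset 50) with quantile normalization, the mean of all probes, and other filters, variance priors and designs.

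From each pathway list the genes to be named were those at least 2-fold different in either sex, or otherwise the 2 brightest. Other genes are marked as picked after their values were seen. Ifng, Ccl12, Ccr1, Ccr3 and Cxcr1 carry no such mark but were likewise named outside this rule. The members and lists were chosen with earlier results of these data known. 1 gene of the planned receptor list is not reported here.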

Additional observations from a re-analysis of the deposited data

Results flagged for a closer look

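Ccl2 and Ccl3 had differences of opposite sign in the sexes. For Ccl2 the female difference (-0.11) was smaller than its scanner error (0.21), and it was -0.01 with the authors' value table. The female CB-NP difference minus the male one was -0.65 on the log2 scale for Ccl2 (scanner error 0.30) and -1.43 for Ccl3 (scanner error 0.48). Ccl4, above 0 in both sexes as centred here, had a value of -0.72 (scanner error 0.34). With 1 pool per group these differences between the sexes were not tested. For Ccl2, Ccl3 and Ccl4 the male control was the lower and the female control the higher of the control pools.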

How the results depend on the processing

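All 6 male differences stayed above 0 under the 6 processing settings (but Cxcl9 by its other probe alone, an alternative chosen after seeing the data, was -0.19), as did Ccl5, Cxcl9 and Cxcl10 in females. Of 6 measured chemokines, 0 were 2-fold higher in males, against 1 (Ccl3, 1.02) with the authors' value table. Without the filter on dim probes, where all 9 genes enter, 1 was 2-fold higher and 1 lower in males and 1 higher in the female than in the male control, and these were genes not well above background. limma called 0 chemokines, and 1 (Cxcl10) with an intensity trend. Without the male pair, the CB-NP effect over the sexes was -0.11 for Ccl2 and -0.47 for Ccl3. With normexp, 0.247% of genes in males, 0.355% in females and 0.0918% between the controls were at least 2-fold different, in place of 0.86%, 1.09% and 0.777%, and without the filter 5.42%, 5.45% and 5.11%. Genes called by limma numbered 12, and 347 with median centring, 381 with a trend, 45 with normexp, 3 with quantile normalization, 2 with the authors' table, 8 with the mean of all probes, and 0 without a filter (1363 at an unadjusted p under 0.05) or with detection on all 4 arrays (2114). Of the genes at least 2-fold different, 41.0% were higher in males, 60.4% in females and 32.7% between the controls; this became 46.8%, 42.5% and 55.3% with median centring, 43.8%, 49.4% and 48.6% with quantile normalization, 53.1%, 73.7% and 31.8% with the authors' table and 37.1%, 46.0% and 69.2% with normexp. With median centring the limma SE was 0.22 for each of the 6 chemokines, against 0.09 to 0.40 as centred here. The causes of these shifts were not tested. Leaving out a single array was not run, since it leaves this model no residual degrees of freedom. Sex, a term of the limma model, is the one pairing the labels give; without it 9 genes and 0 chemokines were called. The number of arrays, and for Ccl3 and Ccl4 the weak signal over background, limit the precision.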

Other observations

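Ccl24, which encodes the eosinophil attractant eotaxin-2 and acts on Ccr3, was picked for mention after its values were seen. It gave 211, 426, 619 and 457 units in the 4 pools. The male control was the lowest, with differences of centred levels of 0.99 in males, -0.13 in females and 1.33 between the controls. Its receptor gene Ccr3 gave 527, 778, 785 and 487 units in the same order, and differences of centred levels of 0.54, -0.38 and 0.35. All 7 eosinophil marker genes were lower in both CB-NP pools than in either control, and all 7 were higher in the female than in the male control (median 1.08). For Siglecf the male CB-NP difference was only -0.06, and it was 0.00 with the authors' value table and with normexp.

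Ccl12, a mouse relative of Ccl2 with a weak signal (12.0 to 29.6 units), differed by -0.60 in males and 0.98 in females, and by -0.05 and 0.18 with normexp.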
